A study of Homo sapiens with 12 samples.

Results

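The Krüppel-like factors examined were KLF2, KLF3, KLF4, KLF6, KLF9, KLF10, KLF11, KLF12, KLF13 and KLF16, 10 genes of 61806 in the LP-1 table and of 19130 in the U266 table. The list was drawn up with the response to dihydroartemisinin (DHA) in these libraries already known, so the members' own differences between DHA and DMSO are given as a description, without a test. LP-1 and U266 are established human multiple myeloma lines, labelled wild type and derived from malignant plasma cells. Each line was exposed for 12 h to DHA, the active metabolite of the artemisinin antimalarials, at the concentration that inhibits growth by 50%, or to the same amount of the solvent DMSO. RNA was sequenced from 3 libraries per group, 12 in all. Values were FPKM, which divides the fragments of a gene by its length and by the size of the library, so that levels of different genes can be compared. The labels do not say whether the 3 libraries of a group were grown apart, so the p-values below describe the scatter of these libraries, part of which may be technical.

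Krüppel-like factors are transcription factors whose carboxy-terminal zinc fingers bind GC-rich and CACCC sequences, the same class of sites bound by the SP factors. They differ in the amino-terminal part. KLF2, KLF4 and KLF6 sit among the family's activators, which work with the acetyltransferases EP300 and CREBBP. KLF3 and KLF12 repress through the corepressor CtBP, and KLF9, KLF10, KLF11, KLF13 and KLF16 repress through SIN3 and histone deacetylases. In the B lineage KLF2 restrains proliferation and controls homing, and in myeloma cells it has been described as acting with the demethylase KDM3A and the transcription factor IRF4.

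The libraries held 10.33 to 21.84 M reads, as recovered from the steps of the FPKM values. Treatment gave the first principal component in each line. LP-1 DMSO replicates 3 and 2 lay at opposite ends of the second component (0.66 and -0.65, with -0.33 for replicate 1). The median log2 distance from the rest of the group was largest for replicate 3, at 0.30. It was 0.12 and 0.22 for DMSO replicates 1 and 2 and 0.06 to 0.08 for the LP-1 DHA libraries. U266 DHA replicate 3 stood apart on the second component (0.79, against -0.46 and -0.40). This U266 library listed 18399 genes above 0, against 14682 to 14992 in the other U266 libraries. It carried the highest summed levels of B cell markers (11.7 FPKM), T and NK cell markers (6.04) and monocyte markers (6.6), which in U266 DMSO were at most 5.22, 2.43 and 1.03. Erythroid markers in U266, nearly all HBB, summed to 10.2 to 11.6 FPKM in DMSO and 6.98 to 7.56 with DHA, and stromal and endothelial markers to 2.87 to 3.44 and 5.26 to 9.1. In LP-1 no B cell, T and NK cell, monocyte or erythroid marker reached 1 FPKM, and the stromal and endothelial sum, led by PECAM1, was 3.97 to 5.29 in DMSO and 1.61 to 1.66 with DHA. Their part in the KLF values was not tested, and values without LP-1 DMSO replicate 3 or U266 DHA replicate 3 are given below. Of 9 plasma cell markers, 8 were at 1 FPKM or more in each line. SLAMF7 in LP-1 and CD38 in U266 were below that level. Genes were tested where 3 or more of a line's 6 libraries reached 1 FPKM. Among them limma called 2504 higher and 2523 lower of 12514 in LP-1 and 2203 higher and 2038 lower of 10422 in U266. A TMM-style scaling changed the U266 split to 1115 higher and 2174 lower.

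Of the 10 members, 9 passed the filter in each line, KLF4 being the exception in both. In DMSO the LP-1 cells had KLF13 (49.7 ± 15.1 FPKM, SD, n = 3), KLF6 (36.3 ± 5.93) and KLF10 (33.4 ± 3.79) at the top, and each of these overlapped its neighbour in that order. KLF2 (19 ± 3.77), KLF16 (14.4 ± 1.53), KLF3 (10.1 ± 1.72) and KLF9 (3.78 ± 0.313) followed, each apart from the next. KLF12 (1.59 ± 0.398) and KLF11 (1.43 ± 0.07) overlapped, and KLF4 was last. In U266 the order began with KLF2 (67.6 ± 4.76), KLF10 (51.8 ± 2.1), KLF6 (25.8 ± 1.03), KLF11 (18.7 ± 0.998), KLF13 (16.2 ± 0.288) and KLF16 (12.8 ± 0.777), with no overlap between neighbours. KLF9 (8.04 ± 0.44), KLF12 (7.77 ± 0.738) and KLF3 (7.45 ± 0.364) followed. KLF12 overlapped each of the other two, and every KLF9 library lay above every KLF3 library. Levels were not compared between the lines, whose tables were made differently.

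With DHA, KLF2, KLF13 and KLF16 were lower and KLF9 and KLF11 higher in both lines, with no overlap between the DMSO and DHA libraries. KLF6 was higher and KLF10 lower in LP-1, and both overlapped between the groups in U266. KLF3 and KLF12 were higher in U266 and overlapped in LP-1. The difference between the lines was not tested for the members, since the rule used these contrasts. By the threshold used for all genes (limma, Benjamini-Hochberg adjusted p under 0.05), 2 members of 9 would be counted higher and 4 lower in LP-1, beside 20% and 20.2% of all genes tested (40.2% in either direction). In U266 the counts were 4 higher and 3 lower of 9, beside 21.1% and 19.6% (40.7% in either direction). Groups did not overlap for 3 members higher and 4 lower in LP-1, beside 30.2% and 28.6% of all genes (58.8% together). In U266 they did not overlap for 4 higher and 3 lower, beside 27.6% and 23.9% (51.5% together). Because the members were chosen from these contrasts, nothing is read from these counts. Their median log2 change was 0.06 in LP-1 and 0.04 in U266, against 0.01 and 0.02 for all genes tested. In bulk samples such as these, fewer cells carrying a transcript and less of it per cell cannot be told apart.

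**Figure D1:**
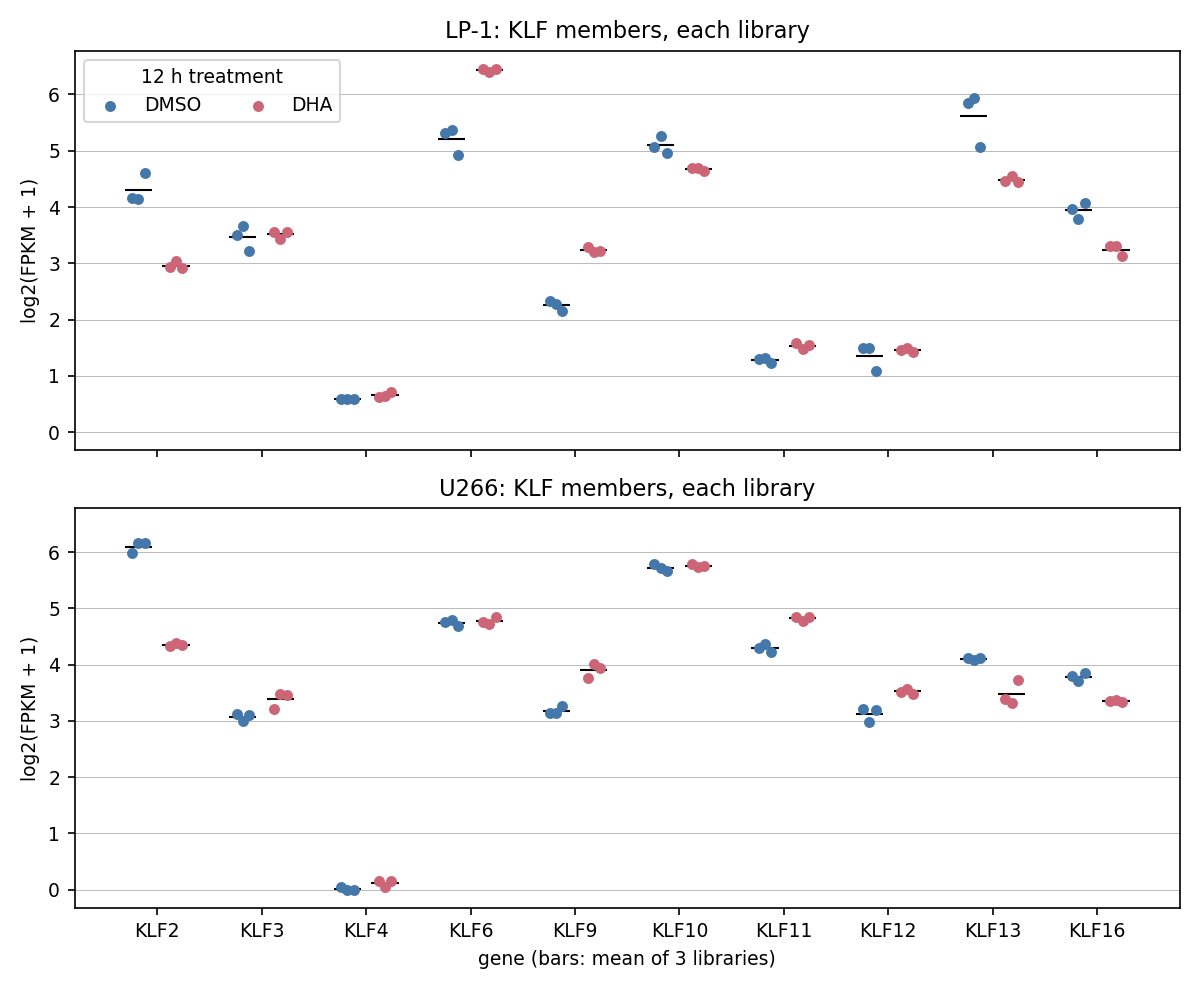
Level of each KLF gene as log2(FPKM + 1) (vertical axis) in each library, with LP-1 above and U266 below; points are the 3 DMSO (blue) and 3 DHA (red) libraries and bars their mean. KLF2 stands lower with DHA in both panels, KLF6 higher in LP-1 and overlapping in U266, and KLF4 is near the bottom in both.

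Among the activators, KLF2 was lower with DHA in every library of both lines. Its log2 difference was the most negative of the members in U266, and in LP-1 too, except that KLF13 was lower still without DMSO replicate 3. KLF2 (ENSG00000127528, chr19:16324817-16327874, plus strand, GRCh38) was at 16.9, 16.7 and 23.4 FPKM in the LP-1 DMSO libraries and at 6.6, 7.25 and 6.51 with DHA. The highest DHA library lay well below the lowest DMSO library, and the DMSO mean was 2.8 times the DHA mean. On the log2(FPKM + 1) scale, which understates the change of genes at low levels, the difference was -1.35 ± 0.14 (SE), or -1.20 without DMSO replicate 3. In U266, KLF2 was at 62.1, 70.2 and 70.5 FPKM in DMSO and at 19, 19.9 and 19.3 with DHA. These groups were tight and far apart, with a DMSO mean 3.49 times the DHA mean and a log2 difference of -1.75 ± 0.06. The member that led the U266 order in DMSO thus came after KLF10, KLF11 and KLF6 with DHA.

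KLF6, a broadly expressed factor that is induced by tissue injury and restrains growth, lies at chr10:3775996-3785281 (minus strand). In LP-1 it was at 38.8, 40.5 and 29.5 FPKM in DMSO and at 86.1, 83.8 and 86.7 with DHA. All DHA libraries were above all DMSO libraries, with a DHA mean 2.36 times the DMSO mean and a log2 difference of 1.23 ± 0.13 (1.09 without DMSO replicate 3). U266 held KLF6 at 26, 26.7 and 24.7 FPKM in DMSO and at 25.9, 25.3 and 27.6 with DHA. Here the groups overlapped, and the log2 difference of 0.03 ± 0.05 became -0.09 with TMM-style scaling.

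KLF4, known as a pluripotency factor and a brake on B cell proliferation, was the lowest of the members in both lines. Its LP-1 levels were 0.51, 0.51 and 0.5 FPKM in DMSO and 0.55, 0.56 and 0.63 with DHA. These groups did not overlap, the DHA mean being 1.14 times the DMSO mean. In U266 it was at 0.0288, 0 and 0 FPKM in DMSO and at 0.106, 0.038 and 0.117 with DHA, which amounts to 2, 0 and 0 reads against 4, 2 and 7. The U266 groups did not overlap either, but every library was within a few reads of 0, so no fold is given.

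Of the factors that repress through CtBP, KLF3 (chr4:38664196-38701042, plus strand) is a regulator of B cell subsets. LP-1 held it at 10.4, 11.7 and 8.26 FPKM in DMSO and at 10.8, 9.84 and 10.7 with DHA. The groups overlapped, and the log2 difference of 0.06 ± 0.13 became -0.07 without DMSO replicate 3. In U266 the values were 7.71, 7.03 and 7.6 FPKM in DMSO and 8.29, 10.2 and 9.95 with DHA. The DHA libraries lay above the DMSO libraries, by 1.28 times in the means and 0.31 ± 0.09 in log2. KLF3 shares exon bases with its antisense gene KLF3-AS1, and reads of the pair cannot be separated if strand was not used in counting.

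KLF12, a repressor first described at the gene for AP-2 alpha, lies at chr13:73686089-73995056 (minus strand). Its LP-1 values were 1.81, 1.83 and 1.13 FPKM in DMSO and 1.75, 1.82 and 1.68 with DHA. They overlapped, with a log2 difference of 0.10 ± 0.13 that became -0.04 without DMSO replicate 3. U266 had 8.24, 6.92 and 8.15 FPKM in DMSO and 10.4, 10.9 and 10.2 with DHA. There the DHA libraries were all higher, by 1.35 times in the means and 0.40 ± 0.08 in log2.

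The SIN3-binding members went in both directions. KLF9, a target of the glucocorticoid receptor that is also tied to the circadian clock and to oxidative stress, lies at chr9:70384597-70414624 (minus strand). LP-1 held KLF9 at 4.04, 3.86 and 3.43 FPKM in DMSO and at 8.75, 8.14 and 8.28 with DHA. The groups were far apart, with a ratio of 2.22 and a log2 difference of 0.98 ± 0.08. In U266 the DMSO libraries were at 7.81, 7.77 and 8.55 FPKM and the DHA libraries at 12.5, 15.2 and 14.4. KLF9 was therefore higher in every DHA library of both lines, in U266 by a ratio of 1.75 and a log2 difference of 0.73 ± 0.08.

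KLF10 and KLF11 are the TGF-beta inducible early genes, which strengthen TGF-beta signalling by repressing the inhibitor SMAD7. KLF10 in LP-1 was at 32.5, 37.5 and 30.1 FPKM in DMSO and at 25, 25 and 24 with DHA. All DHA libraries were lower, the DMSO mean being 1.35 times the DHA mean (log2 difference -0.41 ± 0.10). In U266 KLF10 was at 53.9, 51.8 and 49.8 FPKM in DMSO and at 54.5, 52.1 and 52.9 with DHA. The U266 groups overlapped, and the log2 difference of 0.04 ± 0.05 ran from -0.08 to 0.14 over the alternative scalings.

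KLF11 (chr2:10042849-10054836, plus strand) was at 1.46, 1.48 and 1.35 FPKM in LP-1 with DMSO and at 2, 1.79 and 1.93 with DHA. The groups did not overlap, although the shift was small (0.26 ± 0.09 in log2) at this low level. U266 held KLF11 at 18.7, 19.7 and 17.7 FPKM in DMSO and at 27.7, 26.5 and 27.7 with DHA. The U266 DHA libraries were well above the DMSO libraries, by 1.46 times in the means and 0.52 ± 0.06 in log2. The TGF-beta inducible pair thus went in opposite directions in LP-1, and in U266 KLF11 was higher while KLF10 overlapped. An antisense gene shares 416 exon bases with KLF11 and another 483 with KLF16, so both are uncertain in the same way as KLF3.

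KLF13, which activates the chemokine gene CCL5 in T cells, lies at chr15:31326855-31435665 (plus strand). In LP-1 it was at 56.7, 60 and 32.4 FPKM in DMSO and at 21.1, 22.5 and 20.8 with DHA. DMSO replicate 3 lay between the other DMSO libraries and the DHA libraries, and the log2 difference of -1.13 ± 0.23 became -1.40 without it. U266 had 16.3, 15.9 and 16.4 FPKM in DMSO and 9.5, 8.97 and 12.3 with DHA. The highest of these DHA values came from replicate 3, and the log2 difference of -0.62 ± 0.10 became -0.75 without it.

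KLF16, a GC-box factor described at dopamine receptor genes, lies at chr19:1852399-1863568 (minus strand). Its LP-1 libraries had 14.6, 12.8 and 15.8 FPKM in DMSO and 8.84, 8.88 and 7.71 with DHA, and its U266 libraries 12.9, 12 and 13.5 FPKM in DMSO and 9.18, 9.4 and 9.14 with DHA. Both lines showed lower levels in every DHA library, with log2 differences of -0.70 ± 0.10 in LP-1 and -0.43 ± 0.06 in U266. Without LP-1 DMSO replicate 3, the LP-1 differences of KLF9, KLF10, KLF11 and KLF16 were 0.92, -0.48, 0.23 and -0.63. Without U266 DHA replicate 3, the U266 differences of KLF2, KLF3, KLF9, KLF11, KLF12 and KLF16 were -1.75, 0.28, 0.71, 0.51, 0.42 and -0.42.

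**Figure D2:**
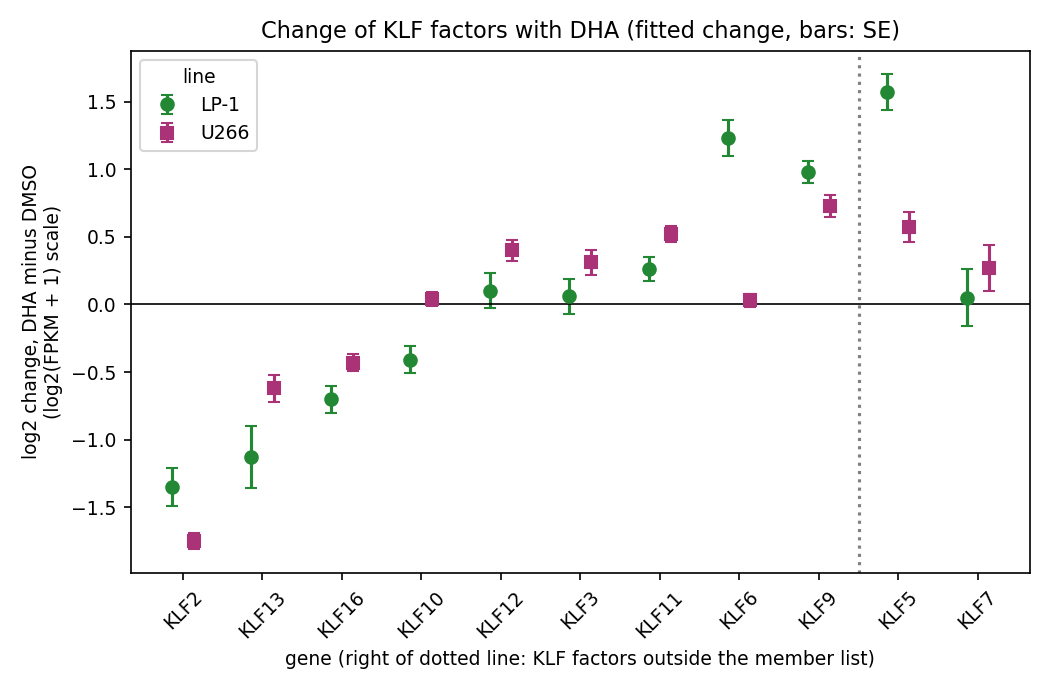
Fitted log2 change from DMSO to DHA on the log2(FPKM + 1) scale (vertical axis, bars SE, 3 libraries per group) for each KLF gene that passed the filter, in LP-1 (circles) and U266 (squares). KLF2, KLF13 and KLF16 are below 0 in both lines, and KLF3, KLF5, KLF7, KLF9, KLF11 and KLF12 are above 0 in both. KLF3, KLF7 and KLF12 are at 0.06, 0.05 and 0.10 in LP-1, where their DMSO and DHA libraries overlapped. KLF6 is at 1.23 in LP-1 and 0.03 in U266.

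The summed level of the members changed less than its make-up. In LP-1 the 10 genes summed to 178, 187 and 146 FPKM in DMSO and to 171, 170 and 169 with DHA, and these ranges overlapped. KLF6 took 20.2% to 21.8% of that sum in DMSO and 49.4% to 51.3% with DHA. KLF13 went from 22.2% to 32.1% down to 12.3% to 13.2%, and KLF2 from 8.95% to 16% down to 3.85% to 4.28%. The U266 sums were 214, 218 and 217 FPKM in DMSO and 177, 179 and 184 with DHA, without overlap. KLF2 took 29.1% to 32.5% of the U266 sum in DMSO and 10.5% to 11.1% with DHA, and KLF10, whose own level overlapped, took 22.9% to 25.2% and then 28.8% to 30.8%. The leading member with DHA was thus KLF6 in LP-1 and KLF10 in U266.

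**Figure D3:**
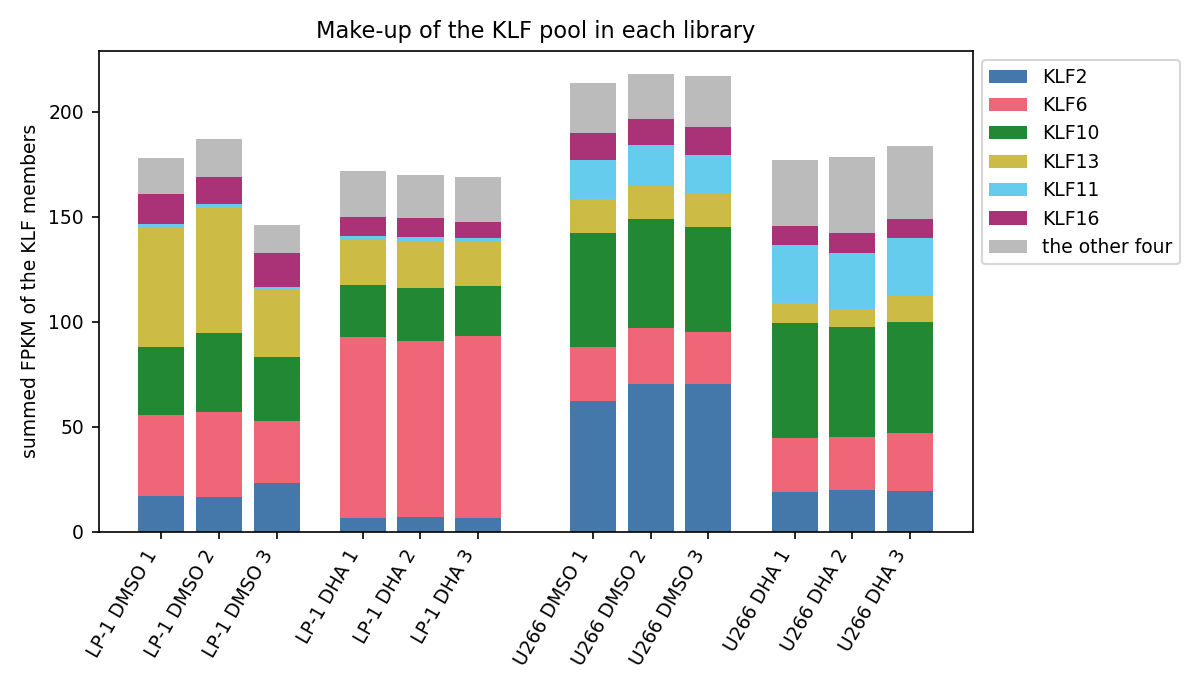
Summed FPKM of the 10 KLF genes (vertical axis) in each of the 12 libraries (horizontal axis), split by gene. The share of KLF6 widens with DHA in LP-1, to 49.4% to 51.3%, and that of KLF2 narrows in U266, to 10.5% to 11.1%.

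The stretches just upstream of KLF2, KLF13, KLF16 and KLF9 are shown. These members passed the filter, moved in the same direction in both lines and have a single annotated start window each. KLF11 also passed and moved the same way, but has 2 windows. KLF4 has 1 window and was higher in both lines, but it did not pass the filter. The stretches come from RefSeq (GRCh38.p14), in which 8 of the 10 members had a window. KLF2 is chr19:16324576-16324816 (plus strand), KLF13 chr15:31326585-31326834 (plus), KLF16 chr19:1863580-1863829 (minus) and KLF9 chr9:70414658-70414907 (minus). Capitals mark the GC box GGGCGG, the box spelled CCAAT and the MEF2 motif, on either strand.
KLF2: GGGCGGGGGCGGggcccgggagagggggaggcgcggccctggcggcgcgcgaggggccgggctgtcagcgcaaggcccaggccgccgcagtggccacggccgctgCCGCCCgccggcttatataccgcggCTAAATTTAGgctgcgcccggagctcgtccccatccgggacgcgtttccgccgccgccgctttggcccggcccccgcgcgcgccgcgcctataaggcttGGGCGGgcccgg
KLF13: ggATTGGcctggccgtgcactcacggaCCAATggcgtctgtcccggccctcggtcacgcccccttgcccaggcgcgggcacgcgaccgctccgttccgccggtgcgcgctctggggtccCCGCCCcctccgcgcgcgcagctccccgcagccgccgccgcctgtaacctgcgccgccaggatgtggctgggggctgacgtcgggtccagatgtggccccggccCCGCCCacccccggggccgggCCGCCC
KLF16: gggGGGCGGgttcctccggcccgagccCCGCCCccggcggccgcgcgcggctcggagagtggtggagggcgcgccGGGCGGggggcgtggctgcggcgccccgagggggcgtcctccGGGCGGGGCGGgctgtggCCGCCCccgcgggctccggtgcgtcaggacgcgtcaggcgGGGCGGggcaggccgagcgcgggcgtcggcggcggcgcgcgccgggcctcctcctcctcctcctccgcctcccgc
KLF9: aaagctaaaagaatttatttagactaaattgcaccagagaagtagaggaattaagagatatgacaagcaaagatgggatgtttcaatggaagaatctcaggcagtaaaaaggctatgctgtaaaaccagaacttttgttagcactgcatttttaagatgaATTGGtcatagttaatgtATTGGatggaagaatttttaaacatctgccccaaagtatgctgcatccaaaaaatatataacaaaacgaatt
The 3 of these members that were lower with DHA have GC-rich upstream windows, and KLF9, which was higher, has an AT-rich one. KLF11, higher in both lines as well, has GC-rich windows (78.8% and 74.4%). In these, 180 and 46 of the 250 bases lie in annotated exons of KLF11 itself. The windows of KLF6, higher in LP-1 alone, and of KLF4, higher in both lines at very low levels, were GC-rich too (72.4% and 69.2%). Those of KLF12, higher in U266 alone, ran from 38.4% to 72%. A link between GC content and direction was not tested. GC content over the full window of 250 bases was 80% for KLF2, 78.8% for KLF13 and 86.4% for KLF16, and 32.4% for KLF9. Of all 35116 windows, 3.28% were at or below the KLF9 value and 99.8% at or below that of KLF16. GC boxes numbered 4 in the KLF2 window, 3 in that of KLF13 and 7 in that of KLF16, with none in that of KLF9, and 42.6% of all windows held at least 1. KLF9 and KLF13 each held 2 CCAAT boxes, present in 32% of windows. The MEF2 motif in the KLF2 window was found in 2.8% of all windows, and among the members also in a KLF12 window. That search and the one for the CArG box, the SRF motif (1.16% of windows, no member), were added after the KLF2 window had been read. The cyclic AMP response element TGACGTCA was in 1.65% of windows and, of the members, in 1 for KLF11. AP-1 (TGACTCA), SMAD (CAGACA) and FOXO (GTAAACA) letters were in no member's window and in 4.2%, 13.6% and 2.98% of all. CACCC was found for 3 of the 8 members (54.7% of all windows) and the E-box CACGTG for 3 (6.34%). The metal response element was found for 4 as TGCGCNC (16.8%) and for 2 as TGCACNC (9.87%). The ATF4 composite TGATGNAA was found for 1 (3.14%) and TATAAA for none (10.7%). KLF11 and KLF12 were searched in more than 1 window. A match is a description of the letters and not evidence of binding. In the 3' untranslated regions (GENCODE v29) the pentamer ATTTA, the core of AU-rich elements, was densest among the members in KLF2, at 3.55 per kilobase, and sparsest in KLF13, at 0.892. The median of 17059 genes was 1.69 per kilobase.

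Of the 8 KLF genes outside the list, KLF5 and KLF7 passed the filter in each line, and KLF1, KLF8, KLF14, KLF15 and KLF17 did not. KLF18 had a row in the LP-1 table alone, at 0 in all 6 libraries. KLF1, the erythroid factor, was at 2.26 FPKM in U266 DHA replicate 3 and at 0.698 or less in the other U266 libraries. KLF5, a growth-linked activator of gut epithelium, rose in both. It was at 0.61, 1.05 and 0.62 FPKM in LP-1 with DMSO and at 4.41, 4.41 and 3.79 with DHA, a ratio of 5.53 (log2 change 1.57, limma adjusted p = 0.000433). In LP-1 KLF5 met the filter only because of its DHA libraries, which limits this test and the one between the lines. In U266 KLF5 went from 2.66 ± 0.377 to 4.41 ± 0.228 FPKM (0.57, adjusted p = 0.00187). Its change was larger in LP-1 than in U266 by 1.00 on the log2 scale (interaction adjusted p = 0.000692, a test that 34.5% of 8914 genes passed). KLF7 did not pass in LP-1 (0.05, adjusted p = 0.853) or in U266 (0.27, adjusted p = 0.224). Under the interaction test the calls split into 1650 genes with the larger value in LP-1 and 1427 with the larger value in U266, and into 2181 and 868 with TMM-style scaling.

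The SP factors SP1 to SP4, which bind the same GC boxes, passed the filter in both lines. None of the 4 passed limma's test in LP-1 (1 had an unadjusted p under 0.05), where SP2 had the largest value (0.56, adjusted p = 0.0801), and SP2 passed without DMSO replicate 3 (0.31, adjusted p = 0.015, range 0.0121 to 0.195 over the alternatives). In U266, SP1 (0.17, adjusted p = 0.0237) and SP3 (0.19, adjusted p = 0.0424) rose. Both of those calls were lost in several alternatives, with TMM-style scaling giving adjusted p = 0.747 and 0.672, the highest of each range.

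Among the partners of the KLF proteins, 13 co-regulator genes of 14 were tested in each line. In LP-1, 3 rose and 4 fell, and in U266, 2 rose and 4 fell, with list medians of -0.18 and -0.08. Beside the counts of this list and those below, 20% of all genes tested were higher and 20.2% lower in LP-1. In U266, 21.1% were higher and 19.6% lower, and the medians of all genes were 0.01 in LP-1 and 0.02 in U266. The lists were chosen with earlier results of these data known, so nothing is read from their counts. The deacetylase gene HDAC1 fell from 30.5 ± 1.62 to 20.3 ± 0.745 FPKM in LP-1 (-0.56, adjusted p = 0.00236) and from 25.7 ± 1.28 to 17.6 ± 0.692 in U266 (-0.52, adjusted p = 6.03e-05). RBBP4, a histone-binding subunit of the SIN3 complex, also fell in both (-0.46, adjusted p = 0.00397 and -0.29, adjusted p = 0.00122). SAP30, another SIN3 subunit, rose in U266 (0.58, adjusted p = 0.000177) and passed in LP-1 only without DMSO replicate 3 (0.25, adjusted p = 0.00698, range 0.00698 to 0.933). CTBP1, the corepressor of KLF3 and KLF12, fell in LP-1 (-0.31, adjusted p = 0.0247) and in U266 (-0.21, adjusted p = 0.024), and it was chosen for mention after its values had been seen.

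The acetyltransferases EP300 and CREBBP rose in LP-1, EP300 from 7.46 ± 4.49 to 18.5 ± 1.65 FPKM (1.35, adjusted p = 0.0346) and CREBBP from 5.5 ± 2.73 to 14.2 ± 1.38 (1.32, adjusted p = 0.0195). Without DMSO replicate 3 these changes were 0.91 and 0.94, and the adjusted p ranged up to 0.101 and 0.0679 when other libraries were left out. In U266 EP300 was at 9.5 ± 0.504 and 9.71 ± 0.715 FPKM (0.03, adjusted p = 0.792), and CREBBP rose slightly (0.27, adjusted p = 0.0183, range up to 0.443). FHL3, a LIM protein that acts with KLF3, fell in LP-1 (-0.86, adjusted p = 0.00156), and its U266 change was -0.09 (adjusted p = 0.742).

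The ubiquitin ligases that turn over KLF proteins were all tested. Of these 7, 3 rose and 1 fell in LP-1 and 1 rose and 1 fell in U266, with list medians of 0.28 and 0.10. SIAH1 rose in both, from 1.34 ± 0.0505 to 3.02 ± 0.244 FPKM in U266 (0.78, adjusted p = 0.000443) and from 3.17 ± 0.673 to 4.46 ± 0.0473 in LP-1 (0.40, adjusted p = 0.045, range up to 0.128). FBXW7, a ligase for KLF2 and KLF5, rose in LP-1 (0.50, adjusted p = 0.00552), and in U266 its change was 0.10 (adjusted p = 0.231). STUB1 fell in LP-1 (-0.44, adjusted p = 0.0354, range up to 0.106) and in U266 (-0.42, adjusted p = 0.0018).

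Upstream of KLF2 in endothelial and lymphoid cells lies the kinase ERK5, which acts through MEF2 factors. Of the 9 tested genes of that list, 3 rose and 1 fell in LP-1 (3 and 3 without DMSO replicate 3), and 3 rose and 2 fell in U266, with medians of 0.07 and 0.19. MEF2A rose from 9.06 ± 2.17 to 16.4 ± 0.42 FPKM in LP-1 (0.81, adjusted p = 0.0098) and from 4.49 ± 0.0522 to 7.28 ± 0.176 in U266 (0.59, adjusted p = 0.000131). MEF2C fell in U266 from 4.76 ± 0.0838 to 1.88 ± 0.197 FPKM (a DMSO mean 2.53 times the DHA mean, adjusted p = 3.42e-05) and stayed within its spread in LP-1 (54.5 ± 10.8 and 56.4 ± 0.888, adjusted p = 0.737). MEF2D fell in U266 (-0.40, adjusted p = 0.000117, range up to 0.0596), and in LP-1 its change was -0.05 (adjusted p = 0.852), or -0.27 without DMSO replicate 3 (adjusted p = 0.0438). The upstream kinase gene MAP3K2 rose in LP-1 (0.72, adjusted p = 0.0042) and in U266 (0.39, adjusted p = 0.00138, range up to 0.0712 with TMM-style scaling). HDAC7, which holds MEF2 factors in check, fell in LP-1 (-0.74, adjusted p = 0.000826), and in U266 its change was -0.13 (adjusted p = 0.171).

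The 3 genes of the myeloma circuit described around KLF2 differed from one another. KDM3A, which removes repressive histone methylation at KLF2, was at 18 ± 2.88 FPKM in DMSO and 26.9 ± 0.405 with DHA in LP-1 (0.57, adjusted p = 0.0128, range up to 0.0555), and at 14.4 ± 0.59 and 27.5 ± 0.395 in U266 (0.89, adjusted p = 8.94e-07). It rose in both lines, in which KLF2 was lower. IRF4, a factor that plasma cells need, was at 83.5, 92.1 and 64.2 FPKM in LP-1 with DMSO and at 260, 254 and 244 with DHA (1.66, adjusted p = 0.000513). In U266 IRF4 was at 179 ± 6.11 and 179 ± 7.41 FPKM (0.00, adjusted p = 0.998), and the difference between the lines was 1.66 (interaction adjusted p = 1.88e-05). ITGB7, the integrin gene named as a KLF2 target, fell in U266 from 10.7 ± 1.13 to 8 ± 0.881 FPKM (-0.37, adjusted p = 0.0102, range up to 0.0998) and had 59 ± 15 and 86.6 ± 4.67 FPKM in LP-1 (0.58, adjusted p = 0.0548, range 0.00305 to 0.155).

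Targets described for KLF factors in other cells were measured next. Of 14 such genes 6 were tested in LP-1 and 9 in U266. In LP-1 none rose (by limma, or at an unadjusted p under 0.05) and 2 fell, and in U266, 2 rose and 4 fell, with medians of 0.02 and 0.12, the latter -0.17 without DHA replicate 3. The sphingosine receptor gene S1PR1, a KLF2 target in lymphocyte homing, fell in U266 from 2.37 ± 0.303 to 1.02 ± 0.669 (-0.78, adjusted p = 0.0145, range up to 0.0778). S1PR1 reached the U266 filter through its DMSO libraries, and it did not pass the filter in LP-1. The cell cycle inhibitor gene CDKN1A, a target of KLF4 and KLF6, fell in LP-1 (-0.53, adjusted p = 0.00454) and rose in U266 (0.40, adjusted p = 0.000334, range up to 0.0748 with TMM-style scaling). CDKN1C, another inhibitor of that family, fell in LP-1 from 25 ± 7.15 to 10.1 ± 0.277 FPKM (-1.19, adjusted p = 0.00374). The cyclin genes CCND1 and CCND2 fell in U266 (-0.70, adjusted p = 4.36e-06 and -0.52, adjusted p = 6.05e-05). CCND2 in LP-1 had 54.4 ± 11.4 and 57 ± 0.839 FPKM (0.09, adjusted p = 0.673).

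Genes of TGF-beta signalling, the pathway of KLF10 and KLF11, were mixed. In LP-1, 3 of 12 tested genes rose and 3 fell, 4 and 4 without DMSO replicate 3, and in U266 1 of 9 rose and 1 fell, with medians of 0.09 and 0.11. The ligand gene TGFB1 fell in both lines, from 42.2 ± 4.52 to 18.6 ± 2.1 FPKM in LP-1 (-1.14, adjusted p = 0.000979) and from 18.6 ± 1.05 to 11.7 ± 0.76 in U266 (-0.62, adjusted p = 5.54e-05). The receptor gene TGFBR1 rose in LP-1 (0.65, adjusted p = 0.00201), and its U266 change was 0.11 (adjusted p = 0.288). BHLHE40, a TGF-beta-responsive repressor that also acts in the clock, fell in LP-1 from 48.2 ± 3.72 to 31 ± 0.975 FPKM (-0.62, adjusted p = 0.0025) and rose in U266 from 39.5 ± 0.214 to 58.4 ± 0.829 (0.55, adjusted p = 5.86e-06).

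Genes of the glucocorticoid response and the circadian clock, the setting in which KLF9 is best known, rose in 13 of 16 cases in U266 and fell in none (limma; none at an unadjusted p under 0.05). Of all genes tested in U266, 21.1% were higher and 19.6% lower, and the list was chosen with earlier results known. In LP-1, 6 of 13 rose and 2 fell (7 and 5 of 12 tested without DMSO replicate 3, where TEF, which passed the filter through its DMSO libraries alone, was not tested), and the list medians were 0.40 in LP-1 and 0.55 in U266. TSC22D3, the glucocorticoid-induced leucine zipper, rose from 21.7 ± 4.1 to 53.8 ± 2.41 FPKM in LP-1 (1.28, adjusted p = 0.000992) and from 3.07 ± 0.437 to 11 ± 0.271 in U266 (1.57, adjusted p = 7.75e-07). The clock repressor gene PER2 rose in LP-1 (0.57, adjusted p = 0.0178, range up to 0.068) and in U266 (1.18, adjusted p = 2.45e-05). The clock output factors DBP and TEF fell in LP-1 (-1.18, adjusted p = 0.00129 and -0.86, adjusted p = 0.0037) and rose in U266 (0.37, adjusted p = 0.00279 and 0.56, adjusted p = 0.00188). NR1D1, the nuclear receptor of the clock's second loop, rose in U266 from 14.2 ± 0.939 to 29.4 ± 2.24 FPKM (1.00, adjusted p = 2.99e-06), and its LP-1 change was -0.10 (adjusted p = 0.657), or -0.29 without DMSO replicate 3 (adjusted p = 0.0151, range 0.0151 to 0.961).

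**Figure D4:**
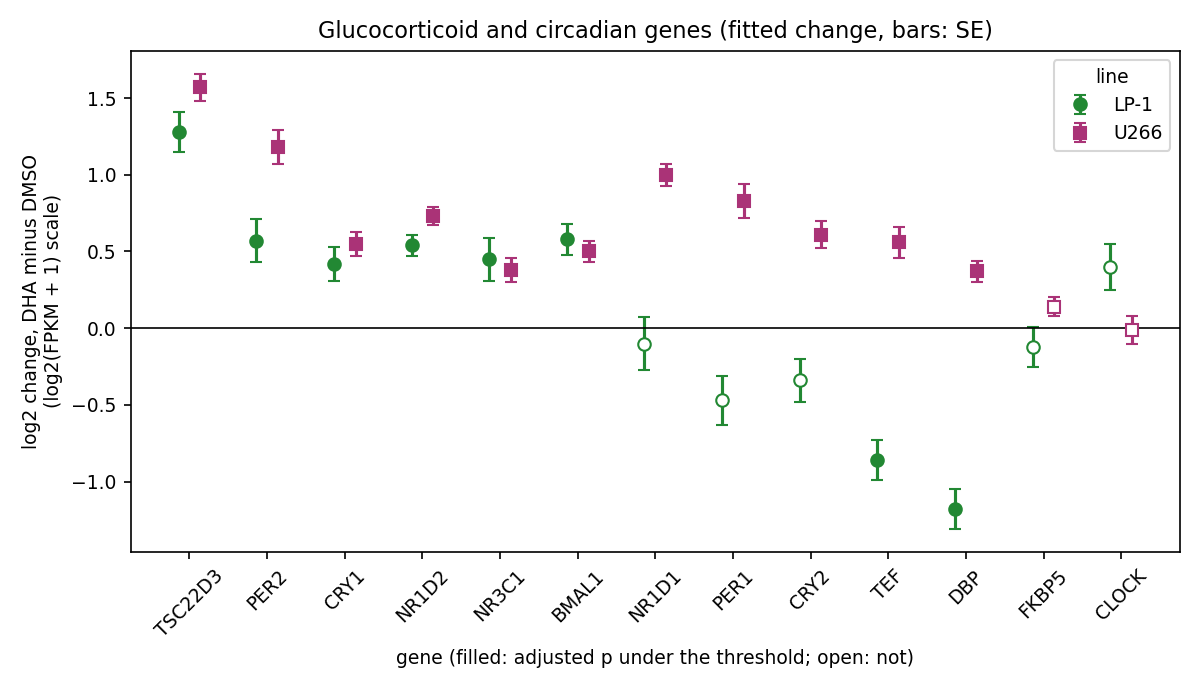
Fitted log2 change from DMSO to DHA on the log2(FPKM + 1) scale (vertical axis, bars SE, 3 libraries per group) for the glucocorticoid and circadian genes tested in both LP-1 (circles) and U266 (squares); filled symbols passed the limma test. TSC22D3 is high in both lines, while DBP and TEF are below 0 in LP-1 and above 0 in U266.

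The immediate-early regulators SRF and EGR, which share the serum response with several KLF genes, gave 4 genes lower and none higher of 6 tested in LP-1 (3 lower of 5 tested without DMSO replicate 3, where EGR1, which passed the filter through its DMSO libraries alone, was not tested) and 2 lower and none higher of 6 in U266, with medians of -0.44 and -0.23. None was higher by limma at an unadjusted p under 0.05 in either line. SRF fell in LP-1 from 30.8 ± 3.96 to 12 ± 0.961 FPKM (-1.29, adjusted p = 0.000627), and its U266 change was -0.20 (adjusted p = 0.0844, range 0.0341 to 0.27). EGR1 fell in LP-1 from 2.32 ± 0.578 to 0.257 ± 0.0404 FPKM (-1.38, adjusted p = 0.00115) and in U266 had 3.23 ± 1.01 and 2.46 ± 0.254 (adjusted p = 0.219). ZFP36, whose product degrades AU-rich transcripts, fell in U266 (-0.40, adjusted p = 0.00414) and in LP-1 (-0.51, adjusted p = 0.0314, range up to 0.103). ELK3, an SRF partner, fell in LP-1 (-0.37, adjusted p = 0.022, range up to 0.0918) and in U266 (-0.36, adjusted p = 0.0017).

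Of the 7 genes of FOXO signalling and quiescence, the setting shared with KLF2, 2 rose and 2 fell in LP-1 (2 and 4 without DMSO replicate 3) and 4 rose and 1 fell in U266 (6 and 1 without DHA replicate 3), with medians of -0.30 and 0.30. BTG2, an antiproliferative gene, fell from 662 ± 21 to 219 ± 7.1 FPKM in LP-1 (-1.59, adjusted p = 0.000161) and from 89.1 ± 2.94 to 56.7 ± 2.02 in U266 (-0.64, adjusted p = 4.91e-06). Its relative BTG1 rose in both (0.81, adjusted p = 0.00192 and 1.08, adjusted p = 1.32e-06). FOXO3 rose in LP-1 (0.67, adjusted p = 0.00341) and in U266 (0.31, adjusted p = 0.00255, up to 0.178 with TMM-style scaling). PIK3IP1, a PI3K inhibitor, rose in U266 (0.63, adjusted p = 0.00166), and its LP-1 change was -0.30 (adjusted p = 0.0701, range 0.0109 to 0.198).

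Plasma cell markers were measured beside these values. Of 8 tested by limma, 2 rose and 4 fell in LP-1, and in U266 none rose (none at an unadjusted p under 0.05) and 5 fell, with medians of -0.59 and -0.32. Those that rose in LP-1 were PRDM1 and IRF4, the latter from 79.9 ± 14.3 to 253 ± 7.91 FPKM. PRDM1 was among those that fell in U266. SDC1, the surface proteoglycan that defines plasma cells, fell from 30.9 ± 1.72 to 5.16 ± 0.484 FPKM in LP-1 (-2.37, adjusted p = 4.93e-05) and also fell in U266 (-1.11, adjusted p = 3.1e-07). CD38 fell in LP-1 (-0.95, adjusted p = 0.00301). JCHAIN and TNFRSF17 fell in U266 (-0.75, adjusted p = 1.35e-05 and -0.68, adjusted p = 9.41e-06), and in LP-1 their changes were -0.17 (adjusted p = 0.404) and -0.60 (adjusted p = 0.15, range 0.0366 to 0.292). The part of these markers in the KLF values was not tested.

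For 4 members the genes of most similar pattern were sought among 8914 genes tested in both lines, by Pearson r of log2 values centred within each line over the 12 libraries. These points share their libraries and the step between DMSO and DHA, which largely sets r, and since the genes were picked for that step no test is given for them here; IRF4, also among them, was named above by another rule. The pattern of KLF2 was matched best by the growth factor gene HDGF (r = 0.995), the adaptor gene SH2B2 (0.995) and AMD1 (0.989), an enzyme of polyamine synthesis. SH2B2 went from 83.1 ± 10.4 to 33.5 ± 0.93 FPKM in LP-1 (-1.28) and from 82.4 ± 4.1 to 31.1 ± 1.13 in U266 (-1.38). The size of a change does not enter r. In LP-1 and U266, HDGF changed by -0.46 and -0.60 and AMD1 by -0.32 and -0.49, against -1.35 and -1.75 for KLF2. KLF6 was matched best by GOLGA3 (0.993), IRF4 (0.991) and SELENOI (0.99), an enzyme of phospholipid synthesis. SELENOI went in LP-1 from 8.48 ± 1.68 to 25.6 ± 0.286 FPKM and overlapped between the groups in U266 (27.8 ± 0.768 and 27 ± 1.49). KLF9 was matched by CYP2R1 (0.989), the vitamin D 25-hydroxylase, by SESN2 (0.989), a stress-induced inhibitor of mTORC1, and by ZCCHC8 (0.988). SESN2 went from 10.2 ± 2.26 to 141 ± 5.51 FPKM in LP-1 (3.69) and from 14.3 ± 0.927 to 96 ± 2.45 in U266 (2.66). KLF10 was matched by ANKRD50 (0.985), CAMK4 (0.975), a calcium-dependent kinase gene, and PNISR (0.971), of which PNISR went in LP-1 from 22.3 ± 3.15 to 11.7 ± 0.18 FPKM and had 7.44 ± 0.384 and 7.99 ± 0.508 in U266.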

How the data were processed

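RNA was sequenced from LP-1 and U266 cells with DMSO or DHA. The authors deposited 1 table of FPKM values per line. LP-1 rows are Ensembl genes and U266 rows are symbols; 61757 and 18686 of them were matched to symbols. The submitters' processing notes list 2 mouse builds, GRCm38 and mm10, although both tables hold human genes. The aligner, counter, annotation and strand setting: not given in the sources used here. Positions are those of GENCODE v29 (GRCh38).

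From the deposited FPKM, log2(FPKM + 1) was fitted per line with limma 3.58.1 (R 4.3.3; trended variance, Benjamini-Hochberg adjustment over all genes with at least 1 FPKM in at least 3 of 6 libraries), called at an adjusted p under 0.05. The lines' changes were compared by an interaction term over 12 libraries. The fit was tested on simulated data. Reads per library were recovered from FPKM steps and GENCODE exon lengths (84.36% to 85.07% of LP-1 and 95.74% to 96.1% of U266 values within 0.1 of a whole read). LP-1 values are rounded. Recovered reads served only to state depth and the read numbers of KLF4 in U266. Python 3.11.15 was used for the summaries.

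The members and gene lists were chosen with earlier results of these data known. Named were the members, other KLF and SP genes that passed the filter, the 3 called genes with the largest change per list and line, 8 preset genes (1 is not reported here), and the 3 genes closest in pattern to KLF2, KLF6, KLF9 and KLF10. Alternatives were TMM-style scaling, quantile normalization, a filter at a mean of 5 FPKM, no filter, a pseudocount of 0.1, no variance trend, a replicate block, 1 fit of all 12 libraries, and leaving out each library.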

Additional observations from a re-analysis of the deposited data

Results flagged for a closer look

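Each value below is the log2 change in LP-1 minus that in U266, and each gene is given because the interaction term of limma passed the threshold, which 34.5% of all genes tested did. The members, and genes named for a pattern like theirs alone, are not included. No explanation was tested.

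Among the partners and relatives of the KLF factors, the change was more positive in LP-1 for KLF5 (1.00), EP300 (1.32), CREBBP (1.05) and FBXW7 (0.41) and more negative for FHL3 (-0.77) and HDAC7 (-0.61). In the circuits around KLF2 it was more positive for MEF2C (1.07), IRF4 (1.66), ITGB7 (0.95), CCND2 (0.61) and FOXO3 (0.36) and more negative for CDKN1A (-0.92), BTG2 (-0.95) and PIK3IP1 (-0.93). Among TGF-beta genes, TGFBR1 (0.54) was more positive, and TGFB1 (-0.52) and BHLHE40 (-1.17) were more negative. All 4 clock genes given here were more negative in LP-1, DBP (-1.55), TEF (-1.42), PER2 (-0.61) and NR1D1 (-1.10), and so were the serum response genes EGR1 (-1.12) and SRF (-1.10). In LP-1, TEF and EGR1 passed the filter through their DMSO libraries alone, and KLF5 only because of its DHA libraries. The filter thus favoured the direction seen for each of them. Of the plasma cell markers, SDC1 (-1.26) was more negative and JCHAIN (0.58) more positive. The calls of EP300, CREBBP, FHL3, FOXO3 and TGFB1 were lost in at least 1 alternative, with adjusted p up to 0.0589, 0.0728, 0.0947, 0.0719 and 0.0634.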

How the results depend on the processing

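The LP-1 count of genes called was 3034 with a mean of at least 5 FPKM, which tests fewer genes, and 2783 to 6745 when 1 library was left out (3253 without DMSO replicate 1; 2790, 2783 and 2852 without DHA replicate 1, 2 and 3), against 5027. The U266 count was 3417 to 4294 with 1 library left out, against 4241 of 10422 genes tested. It was 2547 in 1 fit of all 12 libraries, which tests only the 8914 genes kept in both lines. The count for the difference between lines was 2017 with a mean of at least 5 FPKM and 2314 to 4162 with 1 library left out, against 3077. The LP-1 median of the members was -0.41 with a mean of at least 5 FPKM, which drops low members, and -0.07 to 0.16 with 1 library left out. The U266 median was -0.08 with TMM-style scaling, 0.14 with quantile normalization and 0.01 to 0.07 with 1 library left out. The cause of the shifts under scaling was not tested. TMM-style scaling moved the median difference between lines over all genes from 0.02 to 0.15. No called value changed sign in the alternatives run. Other calls of named genes fell below the threshold 117 times and rose above it 47 times, 102 values without a test moved beyond the spread between replicates, and 3251 values did none of these.

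Same-numbered DMSO and DHA libraries had deviations that correlated by 0.02 to 0.18 (LP-1) and -0.08 to -0.02 (U266), and not every library correlated best with its own number, so the numbers were not taken to pair samples. With a replicate block, 2267 genes were higher and 2292 lower in LP-1, and 2016 higher and 1875 lower in U266; 1540 and 1341 differed between lines in the 2 directions. Depth limits KLF4, at 0 to 7 reads in U266, and the rounding of the LP-1 table limits genes below about 1 FPKM.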
